A study of Homo sapiens with 8 samples.

Results

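The genes described here encode the heterogeneous nuclear ribonucleoproteins (hnRNPs), the SR proteins (symbols SRSF), the proteins of the small nuclear ribonucleoproteins (snRNPs, symbols SNRP) and the SF3a and SF3b subunits. They were taken by symbol from the annotated genes of direct RNA sequencing tables, leaving out names that end in P and a number. Of 69 matching names 14 were left out for that reason, which kept 55 of 20565 annotated genes: 22 hnRNP, 12 SRSF, 12 SNRP and 9 SF3 genes. Reads were found for 54 of them. SRSF12 had 0 reads in every library, and 47 had enough reads to be tested between lines.

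Native RNA of 3 established human lines was sequenced through nanopores without a cDNA copy, so that each read stands for 1 RNA molecule and counts are not scaled by length. The libraries were 2 of K562, a myelogenous leukaemia line, 3 of HepG2, a hepatocellular carcinoma line, and 3 of GM12878, an EBV-transformed B-lymphoblastoid line. The labels give no treatment, and each line is a culture of a single origin, so lines differ in donor, tissue and disease at once. Reads had been sorted into transcript models with the long-read annotation tool TALON. The labels do not state that replicates were grown separately, and the p-values below thus reflect library-to-library spread, which may be technical.

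An intron is removed in steps in which the U1 snRNP binds the start of the intron and the U2 snRNP its branch point. Each of these particles holds a ring of Sm proteins (SNRPB or its relative SNRPN, SNRPD1, SNRPD2, SNRPD3, SNRPE, SNRPF and SNRPG) around its RNA, and SF3a and SF3b complete the U2 particle. SR proteins bind exons and mostly favour their inclusion, while hnRNPs coat new transcripts and often oppose it. Many SR and hnRNP genes limit their own output by making transcripts that are degraded or that keep an intron.

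Reads per library numbered 142837 and 313454 in K562, 248490 to 461497 in HepG2 and 70374 to 176118 in GM12878. Line markers fitted the names of the lines: HBG2 had 6137 reads in K562 and 0 elsewhere, ALB 28446 in HepG2 and 0 elsewhere, and MS4A1 148 in GM12878 and 0 elsewhere. The labels describe K562 as lymphoblastoid, like GM12878, whereas the B-cell markers CD79A and MS4A1 had 0 reads in it. Over all annotated genes with enough reads, not the splicing genes alone, the K562 libraries stood further apart from each other than libraries of the other lines did. The chi-square per degree of freedom was 3.53, against 1.4 to 2.22 in HepG2 and 1.23 to 1.39 in GM12878. Calls of the hnRNP, SRSF, SNRP and SF3 genes that involve K562 are therefore given also without each of its libraries. K562 is then a single library, assumed to vary as libraries of the other lines do. CPM values, which scale reads to a common library total, are relative to the other RNA of the same library, so that less RNA per cell and more of other RNA cannot be told apart.

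The 55 genes together took 1.598% and 1.168% of the annotated reads of the K562 libraries, 0.794%, 0.7393% and 0.8366% in HepG2, and 1.695%, 1.557% and 1.583% in GM12878. On the CPM scale, after adjustment of library size by TMM factors, their sum was 13630 ± 1532 CPM in K562 (SD, n = 2), 10330 ± 613 in HepG2 (SD, n = 3) and 16090 ± 773 in GM12878 (SD, n = 3). On this scale HepG2 libraries were the lowest and GM12878 libraries the highest, with no overlap among the lines. In the unscaled percentages K562 replicate 1 (1.598%) lay within the GM12878 range, while HepG2 stayed the lowest. In CPM the same order without overlap held for the sums of the hnRNP genes, at 6490 ± 402 CPM in K562, 4707 ± 325 in HepG2 and 7976 ± 820 in GM12878. In the other families HepG2 also had the lowest and GM12878 the highest mean, but lines overlapped. The SRSF genes had 1346 ± 611 CPM in K562, 1108 ± 259 in HepG2 and 1777 ± 104 in GM12878. The SNRP genes had 4229 ± 571 CPM in K562, 3428 ± 150.4 in HepG2 and 4712 ± 126 in GM12878, and the SF3 genes 1561 ± 51.2, 1084 ± 1.99 and 1622 ± 33.3 CPM in K562, HepG2 and GM12878. K562 replicate 1 reached into the GM12878 range for SRSF and SNRP genes, and K562 replicate 2 into the HepG2 range for SRSF genes and the GM12878 range for SF3 genes.

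HNRNPA1, which binds exonic and intronic silencers, had the most reads, with 1499 and 2491 CPM in K562, 1247, 1025 and 1050 CPM in HepG2, and 1640, 1617 and 1364 CPM in GM12878. Its K562 libraries lay on either side of the GM12878 mean. HNRNPA1 has many near-identical copies in the genome, and 2 of the names left out, HNRNPA1P48 and HNRNPA1P10, held 181 and 162 reads, so its own count is uncertain. By the mean over the lines SNRPB, the common Sm protein B, came next at 584 ± 45.6 CPM in K562, 866 ± 79.8 in HepG2 and 747 ± 107 in GM12878. SNRPD2 followed, though it stood above SNRPB in K562 (867 ± 30.9 CPM) and in GM12878 (881 ± 44.9 CPM). Among SR proteins SRSF3, SRSF9, SRSF2 and SRSF7 had the most reads, and among SF3 genes the small subunits SF3B5 and SF3B6 together with SF3B2 and SF3A3. At the other end SRSF8, SRSF11, HNRNPH2, HNRNPUL2, HNRNPLL and HNRNPA1L2 had too few reads to be tested. HNRNPUL2-BSCL2, also untested, is a readthrough locus that overlaps HNRNPUL2 on the same strand, so the reads of both cannot be separated with certainty.

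**Figure D1:**
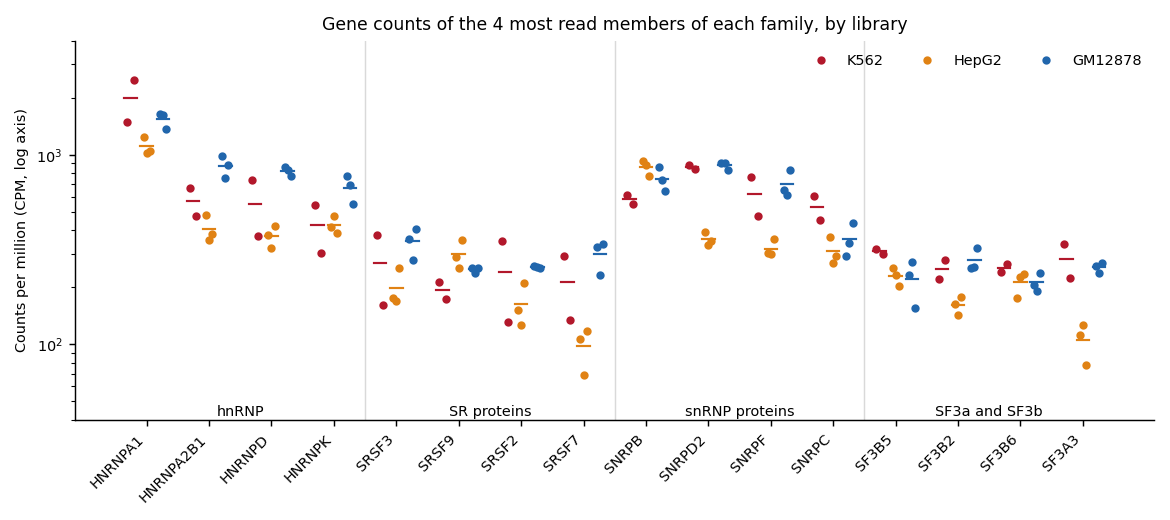
CPM (log axis) of the 4 most read genes of each family; each point is a library, bars are line means, and the families are separated by grey lines. SNRPD2 and SF3A3 stand lower in all 3 HepG2 libraries than in every library of K562 and GM12878, while SNRPB does not.

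In HepG2 against GM12878 the splicing genes were mostly lower in HepG2. Of the 47 tested, 16 were called (adjusted p under 0.05 and at least a 2-fold difference, edgeR quasi-likelihood test), 1 higher and 15 lower in HepG2, beside 49.1% of all 4778 genes tested, 28% higher and 21.1% lower. The share called was thus below that of all genes, while the median fitted log2 difference was -0.75 over the 47, beside 0.02 over all genes. By adjusted p alone 25 were lower and 1 higher, beside 24.7% of all genes lower and 30.9% higher. The counts depended on the scaling. With DESeq2 size factors 14 were called lower and 1 higher. With no scaling factors 28 were called lower and 1 higher, and the median of all genes itself moved to -0.33. HepG2 libraries hold much ALB, AFP, APOA1 and SERPINA1, at a mean of 35400 CPM for ALB alone. Whether such liver messages account for the effect of scaling was not tested.

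Among hnRNPs all 17 tested genes had a fitted difference below 0 in HepG2 against GM12878 under each of these scalings. With TMM factors their median was -0.81, beside 0.02 over all genes. Of the 17, 6 (35.3%) were called lower, beside 21.1% of all genes. HNRNPAB, an RNA-binding protein close to HNRNPD, had 157, 158 and 125 CPM in HepG2, against 513, 401 and 337 CPM in GM12878, and its log2 difference was -1.53 ± 0.26 (SE; adjusted p = 1.12e-06, edgeR). No HepG2 library reached the lowest GM12878 library. HNRNPD, the AU-rich element binding protein AUF1, had 379, 322 and 420 CPM in HepG2, against 860, 832 and 773 CPM in GM12878 (log2 difference -1.13). HNRNPA2B1, an abundant relative of HNRNPA1, averaged 407 ± 67.4 CPM in HepG2 and 876 ± 116 CPM in GM12878 (log2 difference -1.09). HNRNPH3 (-1.14), HNRNPUL1 (-1.12) and HNRNPU, a nuclear matrix protein that also binds RNA (-1.01), were the other called hnRNP genes. Several of these calls lay near the 2-fold limit. HNRNPA2B1 fell short of it without GM12878 replicate 1 or without HepG2 replicate 2 or 3 (-0.94 to -0.99), HNRNPD without HepG2 replicate 2 (-0.99), and HNRNPH3 without HepG2 replicate 1 (-0.96, adjusted p = 0.0553) or 2 (-0.97). HNRNPUL1 fell short without GM12878 replicate 1 (-0.92) or HepG2 replicate 2 (-0.96) or 3 (-0.98). HNRNPU lost its call in 9 of 15 alternatives, among them DESeq2 size factors (-0.96) and leaving out GM12878 replicate 1 (-0.80), HepG2 replicate 1 (-0.88) or 3 (-0.90), or K562 replicate 2 (-0.97). HNRNPA1 itself differed by -0.48 (adjusted p = 0.026) and HNRNPK, a poly(C)-binding hnRNP, by -0.68 (adjusted p = 0.00744), both under the 2-fold limit.

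Of 9 SR proteins tested, SRSF7 and SRSF4 were called lower in HepG2 against GM12878. This is 22.2% of the 9, near the 21.1% of all genes called lower. SRSF7, which also takes part in mRNA export, had 107, 68.7 and 118 CPM in HepG2, against 327, 233 and 337 CPM in GM12878 (log2 difference -1.55 ± 0.30, adjusted p = 1.74e-05). The ranges did not overlap. SRSF4 averaged 31.7 ± 11.8 CPM in HepG2 and 83.3 ± 16.1 CPM in GM12878 (log2 difference -1.31, adjusted p = 0.0102), but was not called without HepG2 replicate 3 (adjusted p = 0.0548) or GM12878 replicate 2 (adjusted p = 0.0815), nor by DESeq2 (adjusted p = 0.0605). SRSF9 had 287, 254 and 354 CPM in HepG2, against 253, 239 and 253 CPM in GM12878, a difference of 0.28 (adjusted p = 0.364).

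The snRNP proteins differed among themselves. Of 12 tested, SNRPA1, SNRPD1, SNRPD2 and SNRPF were called lower in HepG2 against GM12878 and SNRPN was called higher. Together these are 41.7% of the 12, beside 49.1% of all genes called in either direction. SNRPA1, a leucine-rich repeat protein of the U2 particle and the partner of SNRPB2, had 23.7, 79.3 and 55.3 CPM in HepG2, against 207, 262 and 141 CPM in GM12878, the lowest log2 difference among the 16 splicing genes called in this comparison (-2.10 ± 0.36, adjusted p = 1.90e-06). SNRPB2, its partner, was nearly level, with 184, 137 and 188 CPM in HepG2, against 133, 186 and 197 CPM in GM12878 (0.02 ± 0.30). Within the Sm ring SNRPD1 averaged 177 ± 42.1 CPM in HepG2 and 480 ± 35.2 CPM in GM12878 (-1.44), SNRPD2 358 ± 29.8 CPM in HepG2 and 881 ± 44.9 CPM in GM12878 (-1.30), and SNRPF 320 ± 32.3 CPM in HepG2 and 698 ± 116 CPM in GM12878 (-1.10). SNRPF fell short of the 2-fold limit without HepG2 replicate 1 (-0.98), just short of it without GM12878 replicate 3, and stood at -0.91 on known models alone. SNRPD3 had 312 ± 39.3 CPM in HepG2 and 325 ± 66.9 CPM in GM12878 (-0.03), and SNRPB differed by 0.20 (adjusted p = 0.395).

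SF3a, which joins the U2 particle late in its assembly, has 3 subunits, and all of them were called lower in HepG2 against GM12878. SF3A1 had 65.1, 63.4 and 55.3 CPM in HepG2, against 133, 163 and 155 CPM in GM12878 (log2 difference -1.28 ± 0.34, adjusted p = 0.00129). SF3A2 averaged 38.6 ± 7.99 CPM in HepG2 and 115 ± 14.4 CPM in GM12878 (-1.49). SF3A3 had 113, 127 and 77.4 CPM in HepG2, against 260, 239 and 267 CPM in GM12878 (-1.27), and stood at -0.98 without HepG2 replicate 3. In each of the 3 genes every HepG2 library lay below every GM12878 library. None of the 6 SF3b genes was called. Of the 9 SF3 genes 33.3% were thus called, all lower, beside 21.1% of all genes called lower. SF3B2 differed by -0.75 (adjusted p = 0.0144), SF3B1, the branch-point clamp that is mutated in blood cancers, by -0.36 (adjusted p = 0.412), and SF3B5 had 229 ± 24.7 CPM in HepG2 and 221 ± 60.4 CPM in GM12878 (adjusted p = 1).

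SF3A2, HNRNPU, HNRNPUL1 and HNRNPA2B1 each overlap a gene on the opposite strand with reads of its own (PLEKHJ1 with 301, COX20 with 239, TGFB1 with 475 and CBX3 with 412 reads), and no source used here states whether strand was used in counting.

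In K562 against GM12878 few splicing genes were called: 3 of 47, all lower in K562, beside 28.7% of all genes tested, 13.9% higher and 14.8% lower. They were SNRPN, SNRPB2 and SRSF6. SNRPB2, which binds a hairpin of the U2 RNA, had 32.4 and 48.3 CPM in K562, against 133, 186 and 197 CPM in GM12878 (log2 difference -1.99 ± 0.41, adjusted p = 1.04e-04). Both K562 libraries lay well below the lowest GM12878 library. SRSF6 averaged 50.3 ± 6.91 CPM in K562 and 113 ± 25.7 CPM in GM12878 (-1.19 ± 0.42, adjusted p = 0.0258), but lost its call in 8 of 14 alternatives, and without K562 replicate 1 or 2 its adjusted p was 0.077 or 0.0841. The median of the 47 was -0.41, beside 0 over all genes.

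The count depended on which K562 library was used. Without K562 replicate 1, 13 of the 52 splicing genes that then passed the filter were called, 12 lower and 1 higher in K562, beside 29.2% of 6351 genes tested. HNRNPA0, HNRNPD, HNRNPDL, HNRNPK, HNRNPU, SNRPD3, SRSF1, SRSF3, SRSF4 and SRSF7 then joined SNRPN and SNRPB2 as lower, and HNRNPLL was higher. HNRNPLL had 2, 1 and 0 reads in GM12878 and so passed the filter through K562 and HepG2, where it was higher. Without K562 replicate 2 the count was 2 of 49, beside 22% of 5062 genes. The split touched the SR proteins, whose sum was 1778 CPM in K562 replicate 1 and 914 CPM in replicate 2, against 1893, 1693 and 1743 CPM in GM12878. SRSF1 had 299 and 75.9 CPM in the K562 libraries, SRSF2 350 and 131 CPM, and SRSF3 376 and 162 CPM. HNRNPA1 and SNRPA went the other way, SNRPA with 162 and 348 CPM.

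In K562 against HepG2, 10 of 47 were called, 8 higher and 2 lower in K562, beside 44.1% of all genes tested, 17.4% higher and 26.7% lower. With no scaling factors 16 were called higher and 2 lower. The median of the 47 was 0.44, beside -0.07 over all genes. The 3 SF3a subunits were again called together, now higher in K562. SF3A2 had 90.8 and 145 CPM in K562, against 47.4, 31.7 and 36.9 CPM in HepG2 (log2 difference 1.61 ± 0.39, adjusted p = 5.00e-04). SF3A3 averaged 281 ± 80.0 CPM in K562 and 106 ± 25.4 CPM in HepG2 (1.39), and SF3A1 127 ± 15.0 CPM in K562 and 61.3 ± 5.27 CPM in HepG2 (1.07). Without K562 replicate 2, SF3A1 (adjusted p = 0.117), SF3A2 (adjusted p = 0.0716) and SNRPA1 (adjusted p = 0.0763) were not called, and SF3A1 fell to 0.94 without HepG2 replicate 3. SNRPA1 was not called without HepG2 replicate 1 either (adjusted p = 0.103), and DESeq2 called neither SNRPA1 (adjusted p = 0.0504) nor SF3A1 (adjusted p = 0.0559). Without K562 replicate 1, 11 genes were called, beside 39.4% of genes tested, with HNRNPA1 (1.23) and SNRPA (1.44) now higher and SNRPD3 (-1.03) now lower in K562. Without K562 replicate 2, 13 were called, beside 40% of genes tested, and HNRNPAB, HNRNPU, SNRPE, SNRPF, SRSF1 and SRSF2 were newly called higher (1.02 to 1.38).

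SNRPD2 gave the smallest adjusted p of the 8 genes that were higher in K562 than in HepG2. It had 889 and 845 CPM in K562, against 391, 333 and 350 CPM in HepG2 (log2 difference 1.27 ± 0.22, adjusted p = 1.78e-06). SNRPD1 (1.11, and 0.88 without HepG2 replicate 3), SNRPA1 (1.25), HNRNPH3 (1.34, and 0.99 without K562 replicate 1) and SRSF7 (1.02) were the others. SRSF7 rested on 1 library: it had 292 and 135 CPM in the K562 libraries, and its difference was 0.48 (adjusted p = 0.276) without replicate 1 and 0.92 without HepG2 replicate 2. SNRPB2 was lower in K562, with 40.4 ± 11.2 CPM in K562 and 170 ± 28.0 CPM in HepG2 (-2.01, adjusted p = 1.81e-05). The comparisons share libraries, so the low SNRPB2 of K562 enters both comparisons of that line, and the low SF3a of HepG2 both of its own.

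**Figure D2:**
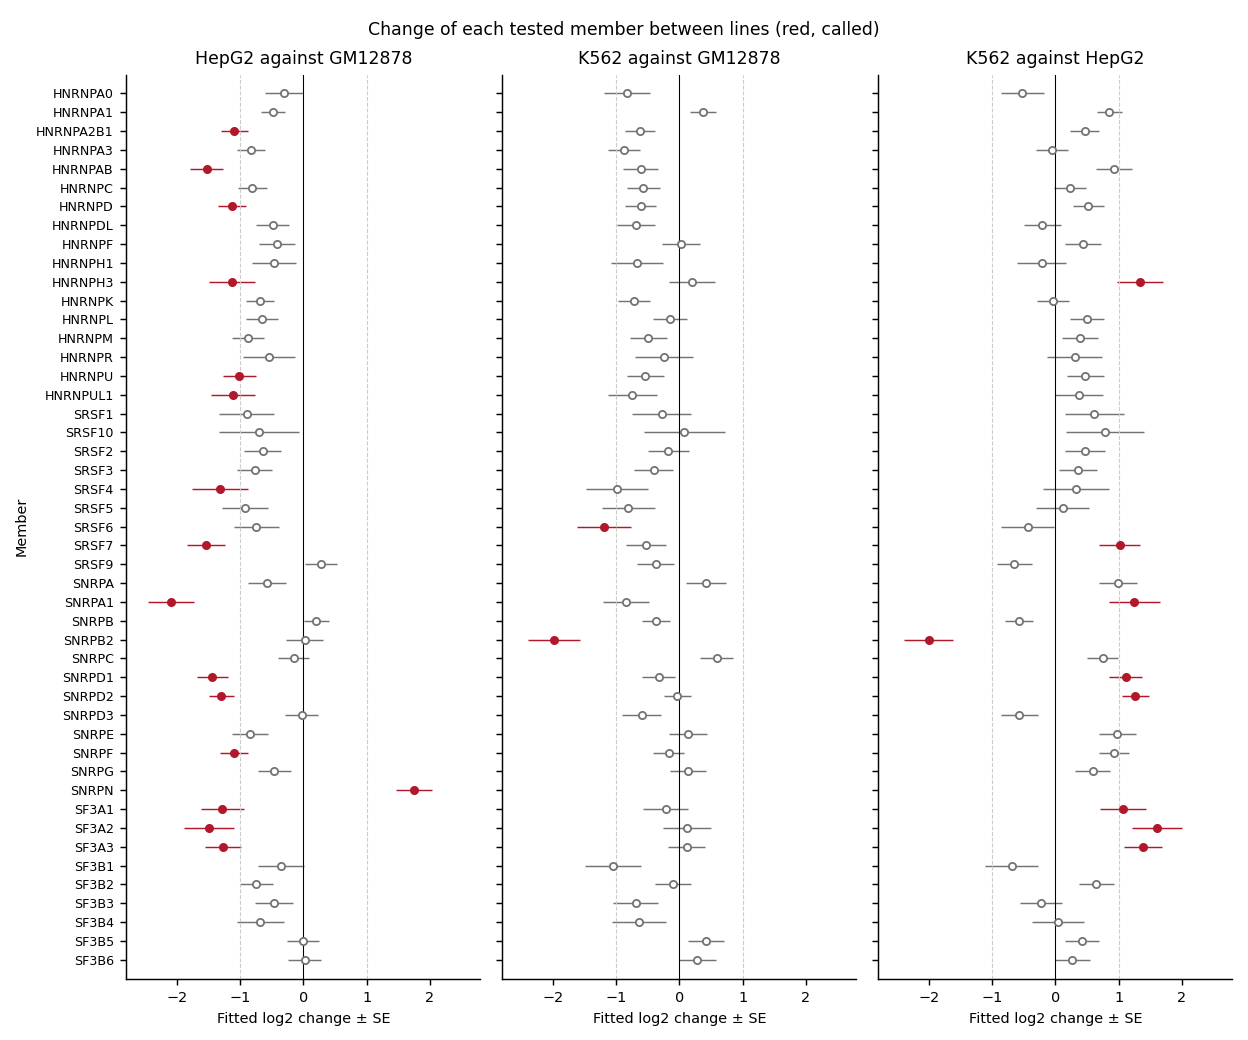
Fitted log2 difference ± SE of each of the 47 tested genes in 3 comparisons, red where called; dashed lines mark a 2-fold difference. SNRPN is left out of the K562 panels because both K562 libraries had 0 reads. The hnRNP points all lie left of 0 in HepG2 against GM12878, and the 3 SF3a subunits change sides between the first and the last panel.

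SNRPN had no read in 1 line and many in another. It encodes SmN, a close relative of Sm protein B that replaces it in the ring, is known for its high level in neurons, and lies in an imprinted region (chr15:24823637-24978723, plus strand, GRCh38; ENSG00000128739.22). It had 0 and 0 reads in K562, 133, 73 and 94 reads in HepG2, and 13, 23 and 8 reads in GM12878. HepG2 libraries held 394, 386 and 346 CPM, against 86.7, 134 and 113 CPM in GM12878, a log2 difference of 1.75 ± 0.29 (adjusted p = 8.03e-07). Against a floor of 3 reads over the K562 line (6.76 CPM), SNRPN was at least 55.5-fold lower in K562 than in HepG2 and at least 16.4-fold lower than in GM12878. SNURF, the other protein encoded by the same locus and strand, had 4 reads in all. Of the known transcripts SNRPN-202 took 126 of 130 reads.

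The relative SNRPB (chr20:2461634-2470853, minus strand) was well read in the 3 lines, with 616 and 552 CPM in K562, 933, 888 and 778 CPM in HepG2, and 860, 733 and 647 CPM in GM12878. Both K562 libraries lay below every library of HepG2 and GM12878. K562 and HepG2 differed by -0.57 (adjusted p = 0.025), under the 2-fold limit, and K562 did not pass the test against GM12878 (-0.37, adjusted p = 0.216). The coding sequences of these relatives are set side by side because reads of alike genes can be misassigned. Both have 720 coding bases, of which 591 are identical without a gap (82.1%). The first 120 coding bases, from the start codon, are shown with the 14 positions at which the genes differ in capitals (GENCODE 29 transcripts SNRPN-202 and SNRPB-202).
SNRPN: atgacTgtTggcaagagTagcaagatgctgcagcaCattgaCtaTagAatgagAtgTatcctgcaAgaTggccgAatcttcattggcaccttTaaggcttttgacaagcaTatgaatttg
SNRPB: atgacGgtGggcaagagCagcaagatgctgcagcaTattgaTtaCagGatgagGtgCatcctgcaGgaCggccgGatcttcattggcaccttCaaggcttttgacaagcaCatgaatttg

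**Figure D3:**
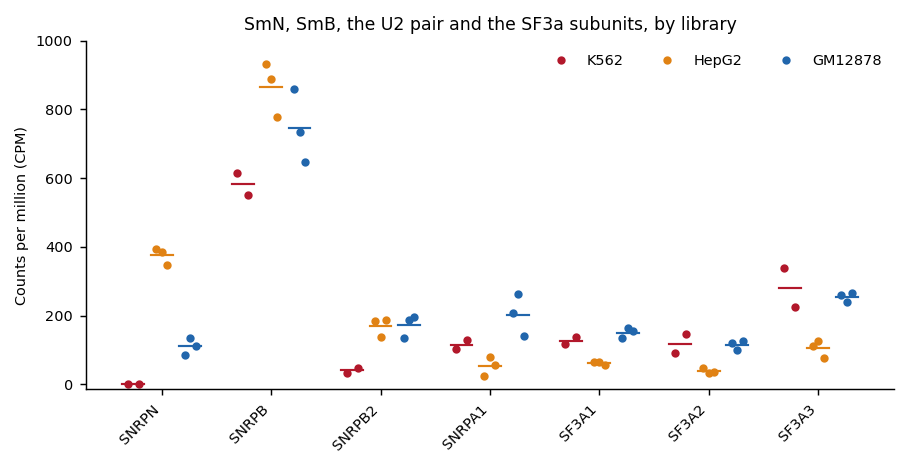
CPM by library of SNRPN and its relative SNRPB, of the U2 pair SNRPB2 and SNRPA1, and of the 3 SF3a subunits; points are libraries and bars line means. SNRPN is at 0 in both K562 libraries and highest in HepG2, SNRPB2 is low in K562, and SNRPA1 and the SF3a genes are low in HepG2.

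Other genes of the splicing machinery were followed with 5 lists of 100 genes in all, of which 75 were tested. In HepG2 against GM12878, 2 were called higher and 19 lower; in K562 against GM12878, 1 higher and 3 lower; and in K562 against HepG2, 12 higher and 3 lower. These are 28%, 5.33% and 20% of the 75, beside 49.1%, 28.7% and 44.1% of all genes. The medians were -0.60, -0.12 and 0.40, beside 0.02, 0 and -0.07 over all genes. Calls in these lists are given from the fit over all libraries alone. No values with a library left out or under another alternative are set beside them, for K562 or the other lines. Of the 8 LSm proteins, the Sm-like ring of the U6 snRNP and of mRNA decay, 4 were called lower in HepG2 than in GM12878 (LSM6, LSM3, LSM8 and LSM7), and LSM8, LSM3, LSM2 and LSM4 were called higher in K562 than in HepG2. The call of LSM7 lay at the 2-fold limit (log2 difference -1.001). LSM6 was also lower in K562 than in GM12878, with 4 and 7 reads in K562 and 10, 31 and 13 in GM12878 (log2 difference -2.45, adjusted p = 1.23e-04).

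Of 16 tested genes of the U5 particle, tri-snRNP and Prp19 complex, PRPF6, a scaffold of the tri-snRNP, was higher in HepG2 than in GM12878 (1.23, adjusted p = 4.78e-05) while PPIH, XAB2 and PRPF31 were lower. PPIH, the cyclophilin of the tri-snRNP, was higher in K562 than in HepG2 (2.66, adjusted p = 1.22e-08), and CD2BP2 was lower in K562 than in both other lines. Of 12 tested U1 and U2 auxiliary factors, DDX39A, RBM17, U2AF1 and PHF5A were called lower in HepG2 against GM12878, and DDX39A, U2AF1, BUD31 and RBM17 higher in K562 against HepG2. U2AF1, which reads the end of the intron, differed by -1.16 in the first comparison and by 1.28 in the second. The call of PHF5A lay near the limit on adjusted p (0.0443, edgeR). Of 14 tested SR-related genes, kinases and exon junction proteins, TRA2B was lower than in GM12878 in HepG2 (-1.62) and in K562 (-1.14, adjusted p = 0.0164), MAGOHB and MAGOH were lower in HepG2 than in GM12878, and SON was higher in K562 than in HepG2. The K562 libraries differed in TRA2B, at 129.8 and 65.55 CPM, against 233.3, 151.3 and 239.0 CPM in GM12878.

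Of 25 tested regulators of splice choice, QKI was higher in HepG2 (log2 difference 2.06, adjusted p = 0.0116) and in K562 (2.21, adjusted p = 0.0189) than in GM12878. QKI had 1, 1 and 2 reads in GM12878 and so passed the filter through the other lines, and its K562 and GM12878 libraries overlapped, at 26.0 and 65.6 CPM in K562, against 6.67, 5.82 and 28.1 CPM in GM12878. RALY was lower in K562 than in HepG2. Those lower in HepG2 than in GM12878 included ELAVL1, SYNCRIP, KHDRBS1 and TIAL1.

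The choice between known transcripts could be tested in 15 splicing genes, and none passed in any comparison. The test (diffSpliceDGE of edgeR, which called a gene when its adjusted Simes p was under 0.05 and a transcript share moved by 10 percentage points or more) called 1.63% of 676 genes in HepG2 against GM12878, 0.592% in K562 against GM12878 and 0.888% in K562 against HepG2. At an unadjusted p under 0.05 there were 1, 1 and 0 splicing genes, and the smallest adjusted p was 0.382, 0.634 and 0.861. The reads behind these shares were few. Shares below are percent of the gene's known-transcript reads in a line.

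Several of these genes differ between transcripts by a cassette exon in the coding sequence, whose inclusion changes the protein without shifting the frame. The exons are printed because known transcripts with and without them are compared below. Known transcripts held 29.1% of all HNRNPD reads, 18.7% of HNRNPA2B1 reads and 61.2% of SRSF7 reads. Whether the other reads include the exons was not tested, so the shares do not give the balance of the whole gene. HNRNPD-203, which lacks the longer of 2 HNRNPD exons, held 50.7% in K562, 53.5% in HepG2 and 76.9% in GM12878, on 69, 71 and 108 reads. HNRNPD-201, with both exons, held 33.3% in K562, 38.0% in HepG2 and 20.4% in GM12878. The largest shift did not pass the test (unadjusted p = 0.196 in HepG2 and 0.0597 in K562, each against GM12878). The first HNRNPD exon has 57 bases (chr4:82371528-82371584, minus strand, GRCh38) and the second 147 (chr4:82356537-82356683, minus strand), and all exon sequences are those of GENCODE 29.
HNRNPD, exon of 57 bases: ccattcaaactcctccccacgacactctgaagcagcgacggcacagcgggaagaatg
HNRNPD, exon of 147 bases: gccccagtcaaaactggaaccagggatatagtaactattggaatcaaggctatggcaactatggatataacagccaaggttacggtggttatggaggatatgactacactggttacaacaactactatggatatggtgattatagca

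The B1 form of HNRNPA2B1 carries an exon of 36 bases near its start (chr7:26197831-26197866, minus strand) that the A2 form lacks. The B1 transcript HNRNPA2B1-201 had 4 and 1 reads in K562, 2, 4 and 4 in HepG2, and 1, 2 and 1 in GM12878. The A2 transcript HNRNPA2B1-202 had 23 and 15 reads in K562, 18, 8 and 8 in HepG2, and 33, 17 and 10 in GM12878. Among the transcripts tested, B1 made up 10.9% in K562, 21.7% in HepG2 and 5.56% in GM12878, and the test did not pass (adjusted p = 0.616 in HepG2 against GM12878). SRSF7-201 includes an exon of 36 bases (chr2:38746144-38746179, minus strand) that SRSF7-209 skips. SRSF7-209 took 20.4% of known reads in K562, 9.52% in HepG2 and 5.06% in GM12878.
HNRNPA2B1, exon of 36 bases: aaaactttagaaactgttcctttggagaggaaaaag
SRSF7, exon of 36 bases: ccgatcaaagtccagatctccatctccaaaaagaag

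HNRNPA1 was the most deeply read of these choices. HNRNPA1-203 held 90.2% of known reads in K562, 91.3% in HepG2 and 94.3% in GM12878. HNRNPA1-202 held 6.27% in K562, 4.35% in HepG2 and 2.86% in GM12878, and no comparison passed (smallest unadjusted p = 0.372).

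When models of all classes were used instead, an alternative chosen after seeing the data, 43 splicing genes of 2071 genes were tested and SRSF1 was called in both comparisons with K562. It was the only splicing gene called, beside 1.64% of genes in HepG2 against GM12878, 1.11% in K562 against GM12878 and 0.821% in K562 against HepG2. SRSF1 (chr17:58003360-58007346, minus strand) encodes the founding SR protein. A single-exon model of 871 bases had 28 and 16 reads in K562, 1, 0 and 0 in HepG2 and 0, 0 and 0 in GM12878. A single-exon model of 1229 bases had 1 and 1 reads in K562, 21, 8 and 28 in HepG2 and 23, 25 and 12 in GM12878. The K562 libraries stood apart from those of both other lines in each model, while HepG2 and GM12878 libraries overlapped. Of the reads in the models tested the shorter one took 72.1% in K562, 1.25% in HepG2 and 0% in GM12878 (adjusted p = 1.26e-06 against HepG2 and 6.01e-08 against GM12878). The adjusted p stayed at or below 5.30e-04 when any single library was left out. Both models are of the class that TALON calls genomic, and the deposited tables give their lengths but no coordinates.

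**Figure D4:**
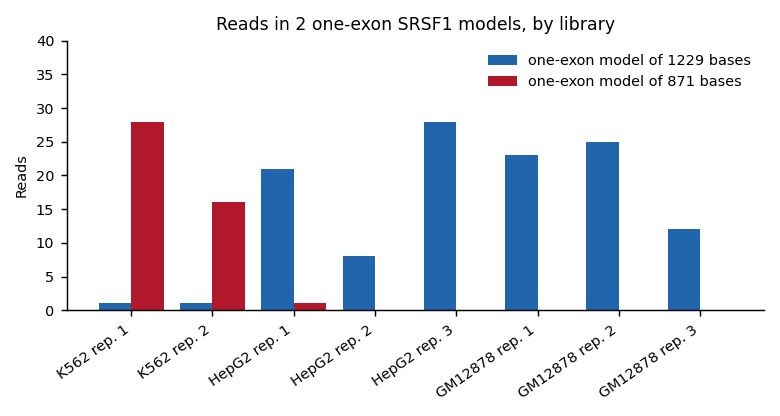
Reads in the 2 most read SRSF1 models, both of a single exon, by library. K562 libraries hold 28 and 16 reads of the model of 871 bases and 1 each of the model of 1229 bases; in HepG2 and GM12878 the order is turned round.

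Of 320 models of these genes with at least 10 reads, 11 had no read in K562 and 6 of those were SNRPN models. HepG2 lacked 3 and GM12878 lacked 12. Apart from SNRPN models, K562 lacked 5, HepG2 3 and GM12878 10. Depth also differed, with the most reads in the HepG2 libraries together and the fewest in those of GM12878. No share over the models of all genes is set beside these counts, so they are not read as differences between lines. The 3 that HepG2 lacked included a single-exon SRSF3 model of 333 bases with 6, 2 and 3 reads in GM12878 alone, and 2 SNRPD1 models with an unannotated splice site, the first with 2 and 8 reads in K562 and 1, 1 and 0 in GM12878, the second with 4 and 4 in K562 and 1, 2 and 2 in GM12878. With these few reads an absence is not tested.

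TALON assigns each read to a known transcript, an incomplete splice match, a new combination of annotated splice sites, a model with an unannotated splice site or a genomic model. An incomplete match follows a run of a known transcript's junctions. Some models of this class here have a single exon and so no junction, such as one of HNRNPU with 119 reads. A genomic model overlaps a gene without following its annotated splicing. Over all libraries 35.7% of the splicing genes' reads were in known models, beside 42.9% of those of all annotated genes. The share by library was 36.7% and 38.1% in K562, 31.8% to 36.0% in HepG2 and 32.2% to 37.7% in GM12878. Incomplete matches took 28.0%, beside 22.7% of all genes' reads, and 80.5% of these lacked the 5′ part of the transcript. New combinations took 21.3%, beside 17.4%, and genomic models 8.22%, beside 10.9%. The share in known models was tested in 19 splicing genes by an exact permutation test over the 560 assignments of libraries to lines (smallest possible p 0.00357). It was called in 0 of them and in 0 of 466 genes tested (0%), with 2 splicing genes and 65 genes at an unadjusted p under 0.05. After adjustment over 466 genes a call required many genes at the smallest possible p together, so 0 calls do not show that shares were equal.

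The families differed in these shares. hnRNP genes had 19.6% of their reads in known models and 35.8% in new combinations, SNRP genes had 58.3% and 4.02%, SF3 genes 39.7% and 15.0%, and SR genes 38.0% and 12.8%. SR genes had 22.7% of reads in genomic models, against 0.809% in SNRP genes. Across 35 genes with at least 100 reads and a coding transcript as their most read known one, the share in known models was lower where that transcript was longer (Spearman rho = -0.61) or had more exons (rho = -0.55; Pearson r = -0.56). This is a description across genes, which are not replicates and share their libraries.

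Single genes stood far apart. SF3B5, a gene of a single exon, had 99.5% of 413 reads in its known transcript, and SNRPF 87.5% of 774 reads. HNRNPM had 0.251% of 398 reads in known models, and a new combination of 3 exons and 1016 bases was its most read model with 110 reads. HNRNPA0 had all 256 reads in genomic models of a single exon. No known model of HNRNPA0 was among the models counted, so its share in known models could only be 0%. SRSF1 (81.3%), SRSF4 (76.9%) and HNRNPF (61.8%) also had most reads in genomic models. SNRPG had its most reads, 113, in a model of 3 exons with an unannotated splice site. Of 45 genes with at least 100 reads the most read model was a known one in 28, an incomplete match in 9 and a genomic one in 6.

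**Figure D5:**
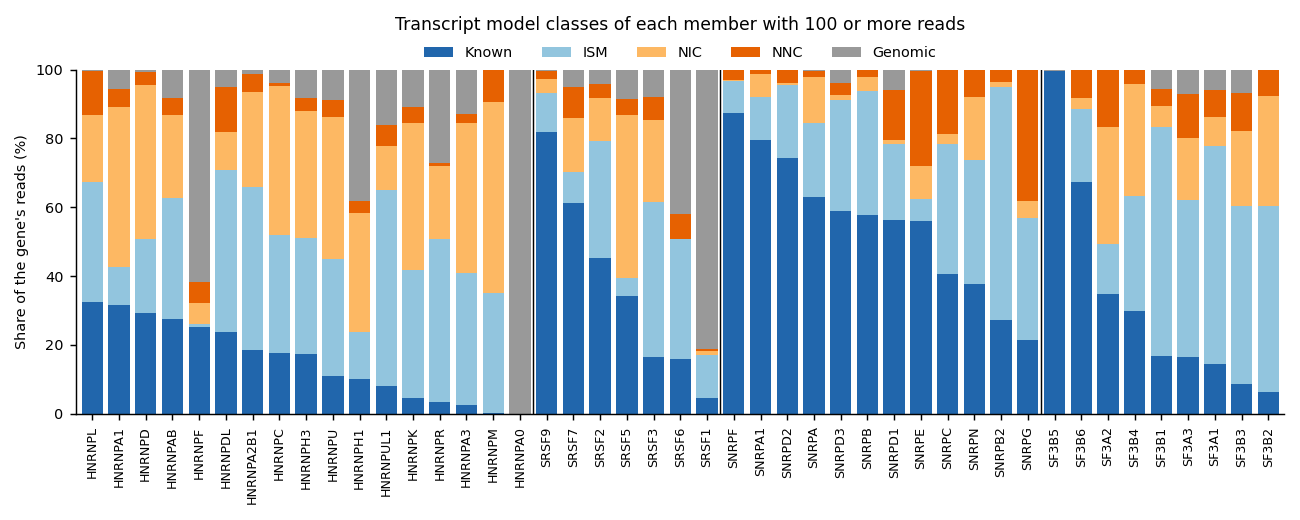
Share of each gene's reads (percent, all libraries summed) in known models, incomplete splice matches (ISM), new combinations of annotated sites (NIC), models with an unannotated site (NNC) and genomic models, for the 45 genes with at least 100 reads; black lines separate hnRNP, SRSF, SNRP and SF3 genes. Known shares fall from 99.5% in SF3B5 to 0% in HNRNPA0, which had no known model among those counted.

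Transcripts annotated as retaining an intron or as targets of nonsense-mediated decay took few of the known reads. Of these 92.9% were in coding transcripts, 5.49% (404 reads) in retained-intron and 0.72% (53 reads) in decay transcripts. HNRNPC had 85.2% of its 101 known reads in retained-intron transcripts, nearly all in HNRNPC-206, with 80.0% in K562, 89.7% in HepG2 and 78.3% in GM12878. HNRNPL, which binds CA repeats, had 70.9% in K562, 75.5% in HepG2 and 54.3% in GM12878. SRSF9-204 made up 16.7%, 20.6% and 6.25% of known SRSF9 reads in K562, HepG2 and GM12878. It had 1 and 10 reads in K562, 12, 5 and 24 in HepG2, and 2, 0 and 3 in GM12878. HNRNPK had all 35 known reads in retained-intron transcripts, but known reads were 4.48% of its 781 reads. Known reads were 17.6% of all HNRNPC reads and 32.6% of all HNRNPL reads, so these shares do not describe the whole gene. No share over all genes is set beside the 5.49% and 0.72%. Decay transcripts reached 10 reads in 2 cases, HNRNPA1-205 with 22 and HNRNPDL-202 with 10.

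These retained-intron reads carry a limit that the annotation shows. In each of the 10 retained-intron transcripts with at least 10 reads, holding 344 reads together, the run of introns that the transcript does remove is also found, in the same order, in a coding transcript of the gene, so a read cut short at its 5′ or 3′ end can match it. In HNRNPC-206 that run is 2 introns and occurs in 12 coding transcripts. The runs of both decay transcripts, with 10 and 8 introns, were found in 0 coding transcripts. How many reads were cut short was not tested. The share in retained-intron and decay transcripts could be tested in 4 splicing genes, of which 0 were called by the exact permutation test, like 0 of all 224 genes (0%), with 0 and 8 at an unadjusted p under 0.05. Among the 4, SNRPB and SNRPD2 held 0% in every library and could not have been called. HNRNPC, HNRNPL, SRSF9 and HNRNPK had too few known reads in some library to be among the 4, so the result does not speak of them.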

How the data were processed

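Total RNA of 8 libraries (2 K562, 3 HepG2, 3 GM12878) was read by direct RNA nanopore sequencing, per the labels. The submitters' processing notes name minimap2 and the hg38 build. The deposited TALON tables hold raw read counts per transcript model; other deposited values give a model's length and its exons. TALON's version and settings are not given in the sources used here. Genes and transcripts matched GENCODE 29 by identifier, which gave coordinates, biotypes and sequences on GRCh38.

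The genes, the lists and the rule for named genes (the most read 4 of each family, up to 10 called genes per comparison and direction by size, genes with a usage or share call, genes at 0 in a line, SNRPN with SNRPB, and up to 5 called genes per list and direction) were chosen with earlier results of these data known, and further genes were named after their values were seen. Counts of all models were summed per gene. In R 4.3.3, edgeR 4.0.16 filtered genes (filterByExpr), computed TMM factors and ran the two-sided quasi-likelihood test (glmQLFTest after a robust glmQLFit) on a joint fit of the 8 libraries. Benjamini-Hochberg adjustment ran over 4778 genes. Called means an adjusted p under 0.05 and a fitted absolute log2 difference of at least 1. CPM used TMM-adjusted totals of tested genes. Usage was tested with diffSpliceDGE on transcripts of 10 or more reads whose gene had 10 or more in each line, and read shares by exact permutation over libraries where every library held 20 or more. The floor for 0 reads, 3 reads per line, covers counting error only. With 70374 to 461497 reads per library, genes of few reads have wide errors. DESeq2 1.42.0, other scalings, filters, a replicate block and leaving out each library were alternatives. The procedures were tested on simulated data.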

Additional observations from a re-analysis of the deposited data

Results flagged for a closer look

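HNRNPA1P48 and HNRNPA1P10 have pseudogene names and are outside the genes compared, but held 181 and 162 reads over the 8 libraries, above the 3 reads that a count of 0 allows. HNRNPA1P48 averaged 148 ± 38.5 CPM in K562 (SD, n = 2), 51.5 ± 15.0 CPM in HepG2 (n = 3) and 213 ± 35.6 CPM in GM12878 (n = 3). HNRNPA1P10 averaged 106 ± 52.2 CPM in K562, 59.5 ± 9.91 CPM in HepG2 and 174 ± 47.3 CPM in GM12878. How many of these reads belong to HNRNPA1 was not tested.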

How the results depend on the processing

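The count for HepG2 against GM12878 was 16; it was 8 on known models only, where 26 splicing genes were tested, 29 with no scaling factors, and 12 to 18 when a library was left out. For K562 against GM12878 the count of 3 ranged from 2 to 13, with 13 without K562 replicate 1. For K562 against HepG2 the count of 10 was 18 with no scaling factors and 10 to 14 when a library was left out. DESeq2 gave 14, 2 and 8. No known-transcript usage call and no call on read shares appeared under any alternative run. The smallest p of the tests of known-model shares was 0.00357 with all libraries, 0.00952 to 0.0143 with a library left out and 0.0278 with the replicate block. After adjustment over all genes a read-share call could hardly be reached, so its absence is no check. Usage over models of all classes called 0, 1 and 1 splicing genes. Of 424 alternative values for the 29 called gene differences, 378 kept their direction and call, 46 kept the direction and lost the call, and 0 reversed. With the replicate number as a block the counts were 16, 3 and 11, with 0 usage and 0 read-share calls; libraries sharing a number correlated at -0.05 to 0.04 in their deviations, so the numbers are not taken as pairs. The depth, 70374 reads in the shallowest library, limited usage tests to 15 genes and tests of retained-intron and decay shares to 4.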

Other observations

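HNRNPLL, a relative of HNRNPL known for CD45 splicing in lymphocytes, was too thinly read to be tested in the fit over all libraries. It had 5 and 14 reads in K562, 19, 4 and 22 in HepG2, and 2, 1 and 0 in GM12878, and neither K562 nor HepG2 overlapped GM12878 in CPM.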
